A study of Arabidopsis thaliana with 9 samples.

Results

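The genes described here are the trehalose phosphate synthases TPS1 and TPS5 to TPS11 of Arabidopsis thaliana and the trehalase TRE1. They were taken by locus identifier, and all 9 were found among the 21176 genes of the table of normalised counts. All 9 passed the filter on low values. The other class I synthases, TPS2 to TPS4, had no row in the table and were not analysed here.

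Messenger RNA was measured by sequencing in rosette leaves of 5-week-old Col-0 plants, the common laboratory accession, grown hydroponically. Phase 1 plants were brought to 90 mM NaCl in steps of 15 mM per day and harvested 2 days after that dose was reached. Phase 0 plants were harvested 1 h after a single shock with 105 mM NaCl, and Control plants received no salt. Each group had 3 libraries, so Phase 1 and Phase 0 plants also differed in salt dose, exposure time and mode of addition. The labels do not say whether replicates were separate plants, so the p-values measure the spread between these libraries only, nor at what time of day leaves were taken.

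Trehalose 6-phosphate is made from UDP-glucose and glucose 6-phosphate by a trehalose phosphate synthase, dephosphorylated to trehalose by a phosphatase of the TPP family, and trehalose is split into glucose by trehalase. In plant leaves trehalose 6-phosphate occurs in traces, follows the sucrose supply and inhibits SnRK1, the protein kinase that turns on genes of energy starvation. TPS1, a class I enzyme, is the main active synthase. The class II proteins TPS5 to TPS11 carry a synthase-like and a phosphatase-like domain, and for most of them no synthase activity has been shown. Transcripts of TPS8 to TPS11 are known to be raised when sugar is short, and those of TPS5 when sugar is plentiful.

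Phase 1 leaves were taken 2 days after gradual salt reached its final dose. TPS1 and TPS5 transcripts were then higher than in Control. Those of TPS8, TPS9, TPS10 and TPS11 were lower by 2.95-fold to 4.57-fold. TPS7 and TRE1 were also lower, by smaller factors. At 1 h after the salt shock TPS5 alone passed the test. Against Phase 0, Phase 1 leaves again had more TPS1 and less of TPS8 to TPS11 and TRE1, while TPS5 differed between the phases by 0.05 on the log2 scale.

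**Figure D1:**
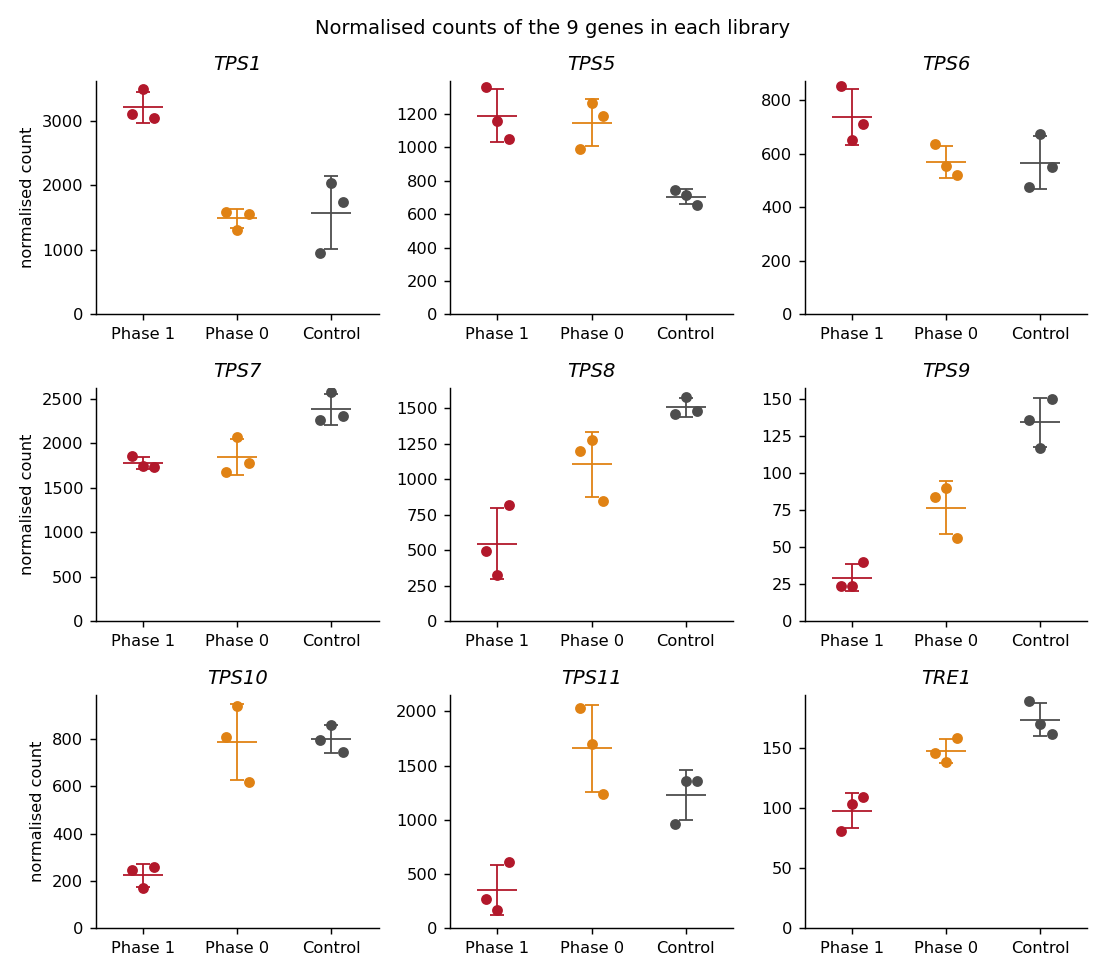
Normalised count (vertical axis, from 0) of each of the 9 genes in Phase 1, Phase 0 and Control libraries, with points for libraries and a bar with whiskers for the mean ± SD of 3 libraries. The 3 Phase 1 libraries lie above all others for TPS1 and below all others for TPS8, TPS9, TPS10, TPS11 and TRE1.

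Differences were tested with limma, a linear model with moderated variances, on log2(normalised count + 1) over 18650 genes with a mean of at least 10, with Benjamini-Hochberg adjusted p-values called at 0.05. Fold changes are on that scale and slightly understate the change of low genes such as TPS9. In Phase 1 against Control 8 of the 9 genes passed, 2 higher and 6 lower, where 36.1% of all tested genes passed, 17.4% higher and 18.6% lower. Groups did not overlap for the same number, 8 of 9, against 47.4% of all genes, and 5 of 9 changed by at least 1 on the log2 scale, against 14.7% of all genes. In Phase 0 against Control 1 of 9 passed, where 2.93% of all genes passed, and groups did not overlap for 5 of 9, against 23.2% of all genes. At that threshold 0 of 9 changed by at least 1 on the log2 scale, where 1.71% of all genes did. In Phase 1 against Phase 0 6 of 9 passed, 1 higher and 5 lower, where 28.1% of all genes passed, 13.7% higher and 14.4% lower. Groups did not overlap there for 7 of 9, against 50.2% of all genes. The median log2 change of the 9 genes was -0.83, -0.04 and -0.60 in these comparisons, against 0.00, 0.01 and -0.01 over all tested genes. Each pair of comparisons shares a group of libraries, so they are not independent of each other. In bulk leaf RNA fewer cells of a type and less RNA per cell cannot be told apart.

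**Figure D2:**
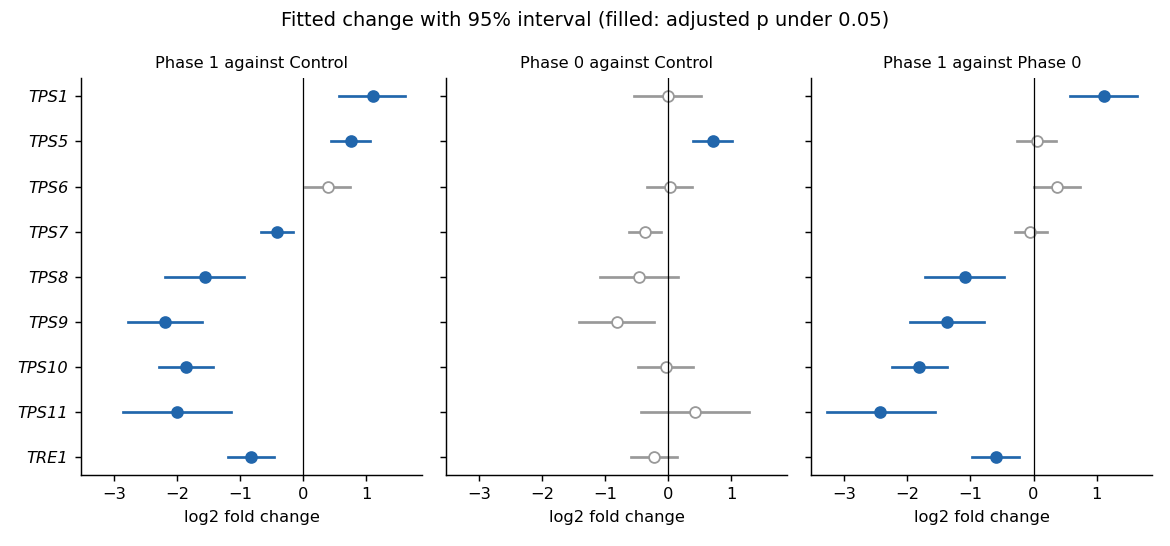
Fitted log2 fold change (horizontal axis) with its 95% confidence interval for each gene in Phase 1 against Control, Phase 0 against Control and Phase 1 against Phase 0, with filled points for an adjusted p under 0.05 (limma). Phase 1 points run from 1.1 for TPS1 to -2.19 for TPS9 against Control, while the Phase 0 points lie between 0.70 and -0.82.

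TPS1 (AT1G78580, chromosome 1, 29552340 to 29560912, minus strand, TAIR10.1) makes trehalose 6-phosphate. Its normalised counts were 3097, 3488 and 3035 in Phase 1 libraries, 1588, 1312 and 1561 in Phase 0 libraries, and 946, 2036 and 1741 in Control libraries. All 3 Phase 1 libraries were above the other 6, and Control replicate 1 was the lowest of all. TPS1 averaged 3207 ± 246 in Phase 1 and 1574 ± 564 in Control (SD, n = 3 each), a log2 difference of 1.1 with a standard error of 0.24 and an adjusted p of 0.00527 in limma. The difference between Phase 1 and Phase 0, whose libraries averaged 1487 ± 152, was nearly the same at 1.11 ± 0.24 (SE, adjusted p = 0.0062, limma). Phase 0 against Control gave a difference of -0.01, with a 95% interval of -0.54 to 0.51.

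Among the class II synthases, TPS5 (AT4G17770, chromosome 4, 9876172 to 9880386, plus strand) was the gene that passed the test against Control in both phases. TPS7, TPS8 and TPS9 also did not overlap Control in either phase. They did not pass in Phase 0 against Control (adjusted p of 0.114, 0.40 and 0.133, limma). TPS5 is known for a part in heat tolerance and for its rise after sugar feeding. TPS5 had 1362, 1158 and 1051 normalised counts in Phase 1, 993, 1267 and 1187 in Phase 0, and 745, 714 and 654 in Control. Every salt-treated library was above every Control library, and the salt groups overlapped each other. TPS5 was 1.68-fold higher in Phase 1 than in Control (log2 0.75 ± 0.14, SE, adjusted p = 0.00208, limma) and 1.62-fold higher in Phase 0 than in Control (log2 0.70 ± 0.14, SE, adjusted p = 0.0255, limma). Between Phase 1 and Phase 0 it differed by 0.05, with a 95% interval of -0.26 to 0.36. The Phase 0 call was lost without Control replicate 3 (adjusted p = 0.108, limma), without Phase 0 replicate 2 (0.118), without Phase 0 replicate 3 (0.125) and without the variance trend (0.052).

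TPS6 (AT1G68020, chromosome 1, 25496928 to 25500584, plus strand), known from mutants with altered cell shape and trichome branching, had 853, 651 and 711 normalised counts in Phase 1, 636, 554 and 520 in Phase 0, and 477, 673 and 549 in Control. Phase 1 overlapped Control through Control replicate 2. TPS6 missed the threshold in Phase 1 against Control (log2 0.39 ± 0.16, SE, adjusted p = 0.0842, limma) and passed it without that library (0.0299), with all libraries scaled to equal totals (0.0354) or with weighted libraries (0.0436). Its difference in Phase 0 against Control was 0.02, with an adjusted p of 0.966 in limma, and in Phase 1 against Phase 0 it was 0.37, with an adjusted p of 0.114, or 0.0148 with weighted libraries.

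TPS7 (AT1G06410, chromosome 1, 1954674 to 1958866, plus strand) was the highest of the 9 genes in Control leaves. It had 1855, 1751 and 1737 normalised counts in Phase 1, 1683, 2069 and 1783 in Phase 0, and 2262, 2579 and 2305 in Control. Both salt groups lay wholly below Control. TPS7 was 1.34-fold lower in Phase 1 than in Control (log2 -0.42 ± 0.11, SE, adjusted p = 0.0165, limma), a call lost without Phase 1 replicate 3 (0.0514) and with equal totals (log2 -0.29, adjusted p = 0.0814). Equal totals moved the median of all genes by 0.14 in that comparison and changed the split of the 9 genes to 3 higher and 5 lower, with TPS6 then passing and TPS7 not. TPS7 differed by -0.37 in Phase 0 against Control, with an adjusted p of 0.114 in limma, or 0.026 with weighted libraries.

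TPS8 (AT1G70290, chromosome 1, 26470795 to 26474833, minus strand) and TPS9 (AT1G23870, chromosome 1, 8432179 to 8435656, plus strand) were the most alike pair in sequence. TPS8 had 494, 326 and 818 normalised counts in Phase 1, 1196, 1273 and 845 in Phase 0, and 1457, 1578 and 1479 in Control. The groups did not overlap, although Phase 1 replicate 3 and Phase 0 replicate 3 came close to each other. TPS8 was 2.95-fold lower in Phase 1 than in Control (log2 -1.56 ± 0.28, SE, adjusted p = 0.00187, limma) and 2.14-fold lower in Phase 1 than in Phase 0 (log2 -1.09 ± 0.28, adjusted p = 0.0157). The call between phases was lost without Phase 0 replicate 1 (0.0521) or Phase 0 replicate 2 (0.0635). TPS8 differed by -0.47 in Phase 0 against Control, with an adjusted p of 0.40 in limma.

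TPS9 was the lowest of the 9 genes in every group and had the largest change in Phase 1 against Control among them. It had 24, 24 and 40 normalised counts in Phase 1, 84, 90 and 56 in Phase 0, and 136, 117 and 150 in Control. The 3 groups were fully separate, in the same order as for TPS8. TPS9 averaged 29.3 ± 9.24 in Phase 1 and 134 ± 16.6 in Control (SD, n = 3 each), 4.57-fold lower in Phase 1 (log2 -2.19 ± 0.27, SE, adjusted p = 0.00019, limma). It was 2.58-fold lower in Phase 1 than in Phase 0 (log2 -1.37, adjusted p = 0.00375, limma). The difference of -0.82 in Phase 0 against Control had a 95% interval of -1.42 to -0.23 and an adjusted p of 0.133, and it passed with weighted libraries only (0.0196).

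TPS10 (AT1G60140, chromosome 1, 22176934 to 22181740, minus strand) had 245, 168 and 257 normalised counts in Phase 1, 808, 940 and 618 in Phase 0, and 797, 862 and 745 in Control. Phase 1 lay far below both other groups, which overlapped. TPS10 was 3.63-fold lower in Phase 1 than in Control (log2 -1.86 ± 0.20, SE, adjusted p = 7.67e-05, limma) and 3.53-fold lower in Phase 1 than in Phase 0 (log2 -1.82 ± 0.20, adjusted p = 0.000101). Its difference in Phase 0 against Control was -0.04, with an adjusted p of 0.935 in limma.

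TPS11 (AT2G18700, chromosome 2, 8108898 to 8112010, plus strand), known for a part in defence against aphids, had 267, 169 and 607 normalised counts in Phase 1, 2036, 1700 and 1238 in Phase 0, and 960, 1358 and 1358 in Control. Phase 1 was below both other groups, and Phase 0 overlapped Control through its replicate 3. TPS11 was 4.0-fold lower in Phase 1 than in Control (log2 -2.0 ± 0.39, SE, adjusted p = 0.00273, limma) and 5.37-fold lower in Phase 1 than in Phase 0 (log2 -2.43 ± 0.39, adjusted p = 0.00115). Its difference in Phase 0 against Control was 0.42, with a 95% interval of -0.43 to 1.28 and an adjusted p of 0.589. Phase 1 replicate 3 was the highest Phase 1 library for TPS8, TPS9, TPS10 and TPS11. Without it, and under each of the other 21 alternatives tried, all 4 genes passed in Phase 1 against Control, with log2 changes between -2.50 and -1.24.

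TRE1 (AT4G24040, chromosome 4, 12488040 to 12491298, plus strand) encodes the single trehalase of Arabidopsis and is known for a part in stomatal closure under drought. It had 81, 103 and 109 normalised counts in Phase 1, 146, 138 and 158 in Phase 0, and 189, 170 and 162 in Control. The groups were separate, with Phase 0 between Phase 1 and Control. TRE1 was 1.78-fold lower in Phase 1 than in Control (log2 -0.83 ± 0.17, SE, adjusted p = 0.00335, limma) and 1.51-fold lower in Phase 1 than in Phase 0 (log2 -0.60 ± 0.17, adjusted p = 0.0227). The call between phases was lost without any 1 of the 3 Phase 0 libraries (adjusted p of 0.0501 to 0.0886) and without Phase 1 replicate 1 (0.0911). Its difference in Phase 0 against Control was -0.23, with an adjusted p of 0.476 in limma.

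Among the 9 genes, then, TPS1, TPS5, TPS8, TPS9, TPS10, TPS11 and TRE1 passed in Phase 1 against Control under all 22 alternatives, and TPS1, TPS9, TPS10 and TPS11 did so in Phase 1 against Phase 0.

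Levels of different genes were compared as normalised counts per kb of annotated exon. In Control leaves TPS7 was highest at 647 ± 46.7 per kb (SD, n = 3), followed by TPS8 at 449 ± 19.2, TPS11 at 416 ± 78.0 and TPS1 at 295 ± 106. TPS5, TPS10 and TPS6 came next at 207 ± 13.6, 184 ± 13.4 and 159 ± 27.8 per kb, then TRE1 at 74.8 ± 5.98 and TPS9 at 45.2 ± 5.57. Neighbours in the order from TPS8 down to TPS6 overlapped over their libraries, so this middle order is not settled. With coding length in place of exon length 5 of the 9 genes kept their rank in Control: TPS1 then stood above TPS11, and TPS10 above TPS5.

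The order was different in the salt groups. In Phase 1 leaves TPS1 was first at 600 ± 46.0 per kb, above TPS7 at 483 ± 17.5 and TPS5 at 350 ± 46.4, and these 3 did not overlap their neighbours. Below them TPS6 (207 ± 29.1), TPS8 (163 ± 74.7), TPS11 (118 ± 78.1), TPS10 (51.2 ± 11.1) and TRE1 (42.1 ± 6.35) formed a run in which each overlapped the gene before it, and TPS9 was last and separate at 9.87 ± 3.11 per kb. In Phase 0 leaves TPS11 had the highest mean, 563 ± 136 per kb, overlapping TPS7 at 501 ± 54.4. TPS8 (330 ± 68.1) overlapped both TPS5 (338 ± 41.4) above it and TPS1 (278 ± 28.5) below it, and TPS10 (181 ± 37.1) overlapped TPS6 (160 ± 16.7), while these 2 sets were separate from each other and from TPS7. TRE1 at 63.5 ± 4.34 and TPS9 at 25.8 ± 6.10 per kb stood apart below them. With coding length TPS7 stood above TPS11 in Phase 0 and TPS1 stood above TPS5 and TPS8, so that 4 of the 9 genes kept their rank there, while all 9 kept it in Phase 1.

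As a share of the summed class II level per kb, TPS8 to TPS11 together made up 20.9%, 16.8% and 34.8% in the Phase 1 libraries, 57.7%, 52.5% and 46.0% in the Phase 0 libraries, and 50.6%, 51.6% and 53.6% in the Control libraries. The 3 Phase 1 shares were below all others, and Phase 0 and Control overlapped. The TPS5 share was 25.5 ± 4.33% in Phase 1, 16.3 ± 2.96% in Phase 0 and 9.87 ± 1.14% in Control (SD, n = 3 each), separate between all groups. TPS11 took 8.26 ± 4.79% in Phase 1, 26.7 ± 4.38% in Phase 0 and 19.7 ± 2.73% in Control. The summed class II level was 1382 ± 161 per kb in Phase 1, 2098 ± 253 in Phase 0 and 2107 ± 156 in Control. TPS1 reached 44.1 ± 9.01% of that sum in Phase 1, 13.5 ± 2.71% in Phase 0 and 13.8 ± 4.16% in Control. These percentages depend on the use of exon length: TPS1 has 5341 exon and 2829 coding bases, and TPS11, for one, 2945 and 2589. These shares follow from the levels above and were given no test.

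**Figure D3:**
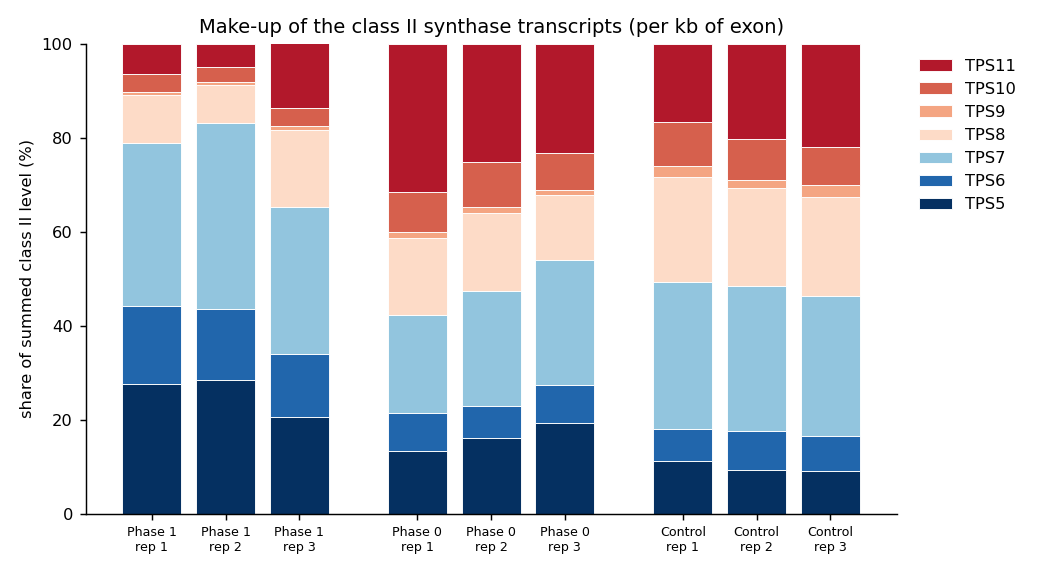
Share of each class II synthase in the summed class II level per kb of exon (vertical axis, percent), with a stacked bar for each library in the order Phase 1, Phase 0, Control. The red part, TPS8 to TPS11, covers 16.8% to 34.8% in Phase 1 libraries, 46.0% to 57.7% in Phase 0 libraries and 50.6% to 53.6% in Control libraries.

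The 7 class II genes share their structure: each has 3 coding exons and 2556 to 2604 coding bases, while TPS1 has 17 coding exons and 2829 bases and TRE1 has 11 and 1881 bases (RefSeq, TAIR10.1). TPS8 and TPS9 were identical at 81.1% of aligned coding bases, TPS8 and TPS10 at 72.4%, TPS9 and TPS10 at 72.2%, and TPS5 and TPS6 at 71.2%. The other class II pairs lay between 64.6% and 68.5%. TRE1, which is not related to the synthases, gave 61.9% to 64.6% with them, so values in that range carry little meaning.

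Because near-identical copies can exchange reads, the longest exact stretch common to any 2 coding sequences was measured against the 75-base reads. The longest among all pairs of the 9 genes was 32 bases, in TPS8 and TPS9. The windows of 1 read length around it are shown, coding bases 1570 to 1644 of TPS8 and 1585 to 1659 of TPS9, with the shared stretch in capitals.
TPS8: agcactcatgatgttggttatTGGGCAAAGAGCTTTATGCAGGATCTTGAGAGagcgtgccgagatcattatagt
TPS9: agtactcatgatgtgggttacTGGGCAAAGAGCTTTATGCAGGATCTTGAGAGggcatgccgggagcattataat
A read of full length across this stretch runs past it on at least 1 side into bases that differ between the genes, so no error-free read from these coding sequences matches both genes.

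The profile distance between 2 genes was taken as the root mean square (RMS) difference of their centred log2 values over the 9 libraries. Within TPS8 to TPS11 the 6 pairs had distances of 0.33 to 0.64, within TPS5 to TPS7 the 3 pairs had 0.35 to 0.54, and the 12 pairs across had 0.62 to 1.36. TPS8 and TPS9 were nearest to each other of all class II pairs, at 0.33, followed by TPS8 with TPS10 and TPS5 with TPS6, both at 0.35. TRE1, not related to the synthases, lay at 0.30 to 0.93 from them. Its distance of 0.30 to TPS7 was below that of every class II pair, so a small distance was also found without related sequence. The split into TPS8 to TPS11 and TPS5 to TPS7 was made with the changes in these same libraries known. Smaller distances within a set are therefore in part given by the split. Pairs also share genes and libraries, so these values are a description.

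**Figure D4:**
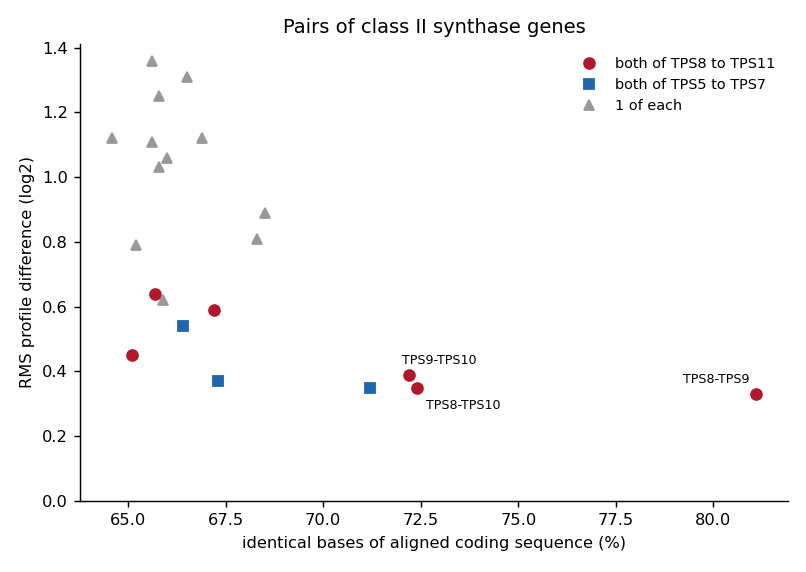
Identical bases of aligned coding sequence (horizontal axis, percent) and RMS profile difference over 9 libraries (vertical axis, log2) for the 21 pairs of class II genes. The 4 pairs above 70% identity all lie at 0.39 or below, while pairs near 65% to 68% lie anywhere between 0.37 and 1.36.

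The same pair was compared upstream of the annotated gene start. In the 250 bases before the start, TPS8 and TPS9 shared 3 exact stretches of at least 9 bases, in the same order. The longest, 12 bases, was also the longest for any of the 36 pairs of the 9 genes. TPS1 with TPS5, TPS5 with TPS8 and TPS5 with TPS9 each shared a stretch of 11 bases. By bases inside such stretches the pair did not stand out. TPS8 and TPS9 had 39 and 31, TPS1 and TPS9 had 39 and 33, and TPS5 and TPS7 had 36 and 36. The sequences are from RefSeq, TAIR10.1, with TPS8 at chr1:26474834-26475083 on the minus strand and TPS9 at chr1:8431929-8432178 on the plus strand, and shared stretches of 9 or more bases are in capitals.
TPS8: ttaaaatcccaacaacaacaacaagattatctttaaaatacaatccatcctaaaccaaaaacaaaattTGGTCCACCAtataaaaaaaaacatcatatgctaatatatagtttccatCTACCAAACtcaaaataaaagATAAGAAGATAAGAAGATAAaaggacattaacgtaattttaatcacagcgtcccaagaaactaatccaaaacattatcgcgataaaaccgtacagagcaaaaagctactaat
TPS9: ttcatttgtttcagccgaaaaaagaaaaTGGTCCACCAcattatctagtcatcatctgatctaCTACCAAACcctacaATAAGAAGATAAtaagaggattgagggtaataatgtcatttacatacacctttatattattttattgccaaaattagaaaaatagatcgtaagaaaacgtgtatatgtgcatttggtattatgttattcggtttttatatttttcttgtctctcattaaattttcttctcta
TGGTCCACCA begins 182 bases before the start in TPS8 and 222 before it in TPS9, and on either strand 0.0653% of 27561 gene promoters of that length hold it. CTACCAAAC begins at 133 bases before the start in TPS8 and 187 before it in TPS9 (0.323% of promoters), and ATAAGAAGATAA at 112 in TPS8 and 172 in TPS9 (0.0363%). In TPS8 the last of these sits inside a longer repeat of its own letters. These are shared letters only, and they were not compared with known binding sites.

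Known promoter motifs were searched on both strands in 300 bases, from 250 before to 50 after the annotated start. The G-box CACGTG, bound by bZIP and bHLH factors, was found in 1 of the 9 genes, TPS6, and in 7.65% of all 27561 promoters. The core of the abscisic acid response element, searched as ACGTGG or ACGTGT, was found in 2 of 9, with 3 matches in TPS6 and 1 in TPS9, and in 18.9% of all promoters. The evening element AAATATCT, a clock motif, was in 0 of 9 and in 5.63% of all promoters. The TPS6 matches lie in the first 60 bases of its window, at chr1:25496678-25496737 on the plus strand, where the G-box overlaps 2 of the 3 matches to the response element. Matched letters are in capitals.
TPS6: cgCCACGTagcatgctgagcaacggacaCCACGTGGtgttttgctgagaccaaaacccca
TPS6 missed the threshold in all 3 comparisons, and TPS9 was lower in Phase 1.

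The named genes whose profiles were most like those of the members were sought among 6823 genes with a symbol and a mean of at least 100 (6824 for TPS9), by the same RMS distance over 9 libraries. Nearest to TPS9 was KINbeta1, listed as AKINBETA1, a regulatory subunit of SnRK1, at 0.16, then MYBL2, a repressor of anthocyanin synthesis, at 0.18 and the sugar transporter STP1 at 0.23. Nearest to TPS8 were the glutamate dehydrogenase GDH1 (0.20), LOL1 (0.21) and the light-harvesting protein CAB3 (0.24). TPS1 was nearest to IQD11 (0.12), emb1997 (0.13) and ABCC13 (0.15). For TPS5 the nearest were BZIP17, a membrane-bound factor of salt and endoplasmic reticulum stress, and UBC32, a ubiquitin-conjugating enzyme, both at 0.09, then ARFB1B at 0.13. For TRE1 they were LSM8 (0.08), CPN20 (0.09) and scpl26 (0.10).

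The phosphatases that remove trehalose 6-phosphate changed in both directions. Of 10 TPP genes 8 were tested, since TPPI was under a mean of 10 and TPPC had no row in the table used here. In Phase 1 against Control 4 were higher, 2 lower and 2 did not pass, in Phase 0 against Control 2 were higher, 2 lower and 4 did not pass, and in Phase 1 against Phase 0 2 were higher, 1 lower and 5 did not pass. The shares of all tested genes that passed were 36.1%, 2.93% and 28.1%. TPPJ had 658, 403 and 455 normalised counts in Phase 1, 215, 174 and 242 in Phase 0, and 82, 87 and 112 in Control, with 3 separate groups. It was 5.28-fold higher in Phase 1 than in Control (adjusted p = 2.99e-05, limma) and 2.23-fold higher in Phase 0 than in Control (adjusted p = 0.021). TPPA had 553, 793 and 693 normalised counts in Phase 1, 127, 150 and 156 in Phase 0, and 345, 487 and 469 in Control, and so moved opposite ways in the phases. TPPA was 2.97-fold lower in Phase 0 than in Control (adjusted p = 0.0023, limma) and 4.65-fold higher in Phase 1 than in Phase 0 (adjusted p = 1.9e-05), and its rise in Phase 1 against Control was 1.57-fold (adjusted p = 0.0193).

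TPPB was 3.79-fold lower in Phase 1 than in Control (adjusted p = 0.00088, limma), TPPF 2.11-fold higher (adjusted p = 0.0017), TPPG 1.55-fold higher (adjusted p = 0.0281) and TPPH 1.74-fold lower (adjusted p = 0.0137). In Phase 0 TPPH was 2.34-fold lower than in Control (adjusted p = 0.0145, limma) and TPPG 2.16-fold higher (adjusted p = 0.0163). Single libraries decide several of these calls. The Phase 0 calls of TPPG and TPPH were lost without Control replicate 3, Phase 0 replicate 2 or Phase 0 replicate 3 (adjusted p of 0.0546 to 0.0855), and that of TPPJ without Phase 0 replicate 1 (0.0627) or 3 (0.117). In Phase 1 against Control, TPPA was lost without Phase 1 replicate 2 (0.0765) or 3 (0.0552), TPPH without Phase 1 replicate 1 (0.0562), and TPPG without Control replicate 1 (0.0618) or 3 (0.0777) or Phase 1 replicate 1 (0.106) or 2 (0.0706).

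SnRK1 itself was followed through 7 subunit genes. In Phase 1 against Control 1 was higher, 2 were lower and 4 did not pass, and in Phase 0 against Control none passed in limma, with 1 at an unadjusted p under 0.05. Of all tested genes 36.1% and 2.93% passed in these comparisons. KINbeta1 had 77, 77 and 142 normalised counts in Phase 1, 288, 233 and 197 in Phase 0, and 423, 463 and 475 in Control, in 3 separate groups. It was 4.76-fold lower in Phase 1 than in Control (log2 -2.25, adjusted p = 8.4e-05, limma). KINgamma, annotated as a regulatory subunit, was 2.66-fold lower in Phase 1 than in Control (adjusted p = 0.000331), with 438, 339 and 465 counts in Phase 1 and 1431, 957 and 950 in Control. KINbeta2 was 1.34-fold higher (adjusted p = 0.0111). The catalytic subunits differed from Control in Phase 1 by 0.12 for KIN10 (adjusted p = 0.475) and 0.40 for KIN11 (adjusted p = 0.0885).

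Genes known to be raised by SnRK1 in starvation were lower in Phase 1 than in Control or did not pass. The list was chosen with earlier results of these data known, so its counts are a description. Of 9 tested, 0 were higher and 5 lower in Phase 1 against Control, with a median log2 change of -3.11, and 4 did not pass. In Phase 0 against Control 1 was lower and 8 did not pass, and in Phase 1 against Phase 0 5 were lower and 4 did not pass, with a median of -2.07. The shares of all tested genes called lower were 18.6%, 1.66% and 14.4% in these comparisons. DRM2, a dormancy-associated gene, had 13, 13 and 31 normalised counts in Phase 1, 2099, 2472 and 911 in Phase 0, and 2599, 1913 and 2306 in Control. It was 122-fold lower in Phase 1 than in Control (adjusted p = 2.44e-06, limma). SEN1, a dark-induced gene, was 21.3-fold lower (log2 -4.41, adjusted p = 0.00145), or -3.58 on the log2 scale without Phase 1 replicate 2, and DIN10, which encodes a raffinose synthase-like protein, 17.4-fold lower (adjusted p = 4.46e-05). DIN10 was the gene called in Phase 0 (4.15-fold lower than Control, adjusted p = 0.0241, limma), and that call was lost without Control replicate 3 (0.104), Phase 0 replicate 2 (0.103) or Phase 0 replicate 3 (0.106). ASN1, the asparagine synthetase of darkness, differed by -1.17 in Phase 1 (adjusted p = 0.142).

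All 4 genes of the sugar-induced list were higher in Phase 1 than in Control, with a median log2 change of 2.51. This list too was chosen with earlier results of these data known, so its counts are a description. In Phase 0 none of the 4 passed in limma, with 3 at an unadjusted p under 0.05, and in Phase 1 against Phase 0 3 passed. The shares of all tested genes called higher were 17.4%, 1.28% and 13.7% in these comparisons. The beta-amylase BAM5 had 26917, 5614 and 7162 normalised counts in Phase 1 and 488, 1355 and 586 in Control, 14.1-fold higher (log2 3.81, adjusted p = 0.000442, limma), or 3.12 on the log2 scale without Phase 1 replicate 1. The glucose 6-phosphate transporter GPT2 was 9.23-fold higher (adjusted p = 0.000812), and APL3, a subunit of the starch-making ADP-glucose pyrophosphorylase, 3.50-fold higher (adjusted p = 0.000545). APL4 lost its call without Phase 1 replicate 1 (adjusted p = 0.0716).

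Of 6 bZIP factors of groups C and S1, through which SnRK1 acts on transcription, 2 were higher, 3 lower and 1 did not pass in Phase 1 against Control. BZIP63 was 4.14-fold lower (adjusted p = 0.000971, limma), BZIP1 3.42-fold lower (adjusted p = 0.00338) and BZIP44 2.52-fold higher (adjusted p = 0.000418). BZIP63 was also 3.42-fold lower in Phase 0 than in Control (adjusted p = 0.021), a call lost without Control replicate 3 (0.0911), Phase 0 replicate 2 (0.0907) or Phase 0 replicate 3 (0.108). Genes that supply UDP-glucose and glucose 6-phosphate mostly did not pass: of 7, 1 was higher in Phase 1 than in Control, the hexokinase HXK1 (1.66-fold, adjusted p = 0.00251). Of 9 genes of sucrose synthesis and cleavage 2 were higher and 1 lower in Phase 1 against Control: SUS3, a sucrose synthase, was 2.89-fold higher (adjusted p = 0.00162), SPS2F, a sucrose phosphate synthase, 1.73-fold higher (adjusted p = 0.018) and the neutral invertase CINV1 2.13-fold lower (adjusted p = 0.000876). The SPS2F call was lost without Control replicate 3 (0.0616), Phase 1 replicate 1 (0.0722) or Phase 1 replicate 2 (0.0652). Against Control in Phase 0, none of these 7 and 9 genes passed in limma, with 3 and 4 at an unadjusted p under 0.05. Beside all these counts, 36.1% of all tested genes passed in Phase 1 against Control and 2.93% in Phase 0 against Control.

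**Figure D5:**
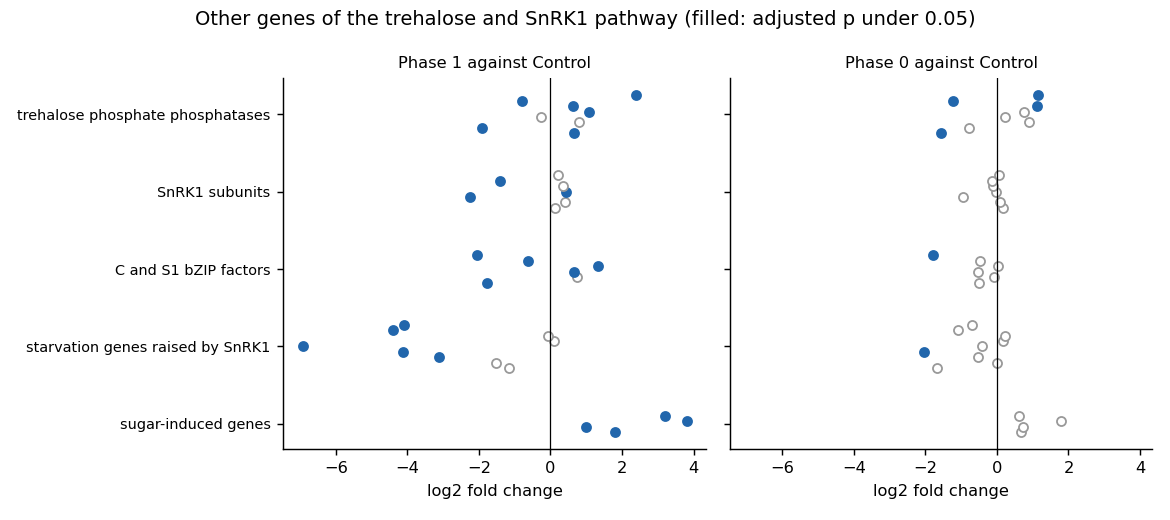
Log2 fold change (horizontal axis) of each tested gene of 5 lists of the trehalose and SnRK1 pathway in Phase 1 against Control and in Phase 0 against Control, with filled points for an adjusted p under 0.05 (limma) and points spread vertically for clarity only. In Phase 1 the filled points of the starvation list all lie left of 0 and those of the sugar-induced list all lie right of 0. The lists were chosen with earlier results of these data known.

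Other measured features moved with the Phase 1 results, and their part in them was not tested. Of 7 morning-phased clock genes 6 were higher and 0 lower in Phase 1 against Control, with CCA1 14.1-fold and LHY 62.9-fold higher, and of 8 evening-phased genes 7 were lower, with TOC1 4.11-fold lower. Over all tested genes 17.4% were higher and 18.6% lower in that comparison. The summed normalised counts of the morning list were 49790 to 62326 in Phase 1, 19447 to 22847 in Phase 0 and 11742 to 21439 in Control, and those of the evening list 1386 to 1852 in Phase 1, 12491 to 13565 in Phase 0 and 6363 to 7941 in Control. In Phase 0 against Control 5 evening genes and 0 morning genes were higher, where 1.28% of all tested genes were. All 9 leaf markers were measured in every library, with sums of 1580654 to 1860883 in Phase 1, 1779530 to 1902298 in Phase 0 and 2078051 to 2376050 in Control. LHCB1.3 was the 1 leaf marker to pass, lower in Phase 1 than in Control (log2 -0.76, adjusted p = 0.00593, limma), a call lost without both Phase 0 replicate 2 and Control replicate 1 (0.0736). Quantile normalisation gave log2 0.00 for LHCB1.3. It sets genes of equal rank to equal values, so it cannot decide for a gene near the top of every library. Companion cell markers summed to 8938 to 10835 in Phase 1, 9758 to 10384 in Phase 0 and 8938 to 11872 in Control. Of the 2, AHA3 did not pass, and the sucrose transporter SUC2 was 1.70-fold lower in Phase 1 than in Control (adjusted p = 0.00194, limma), with 2095, 2342 and 2569 counts in Phase 1 and 3714, 4822 and 3468 in Control. Guard cell markers summed to 1859 to 2152 in Phase 1, 1740 to 1966 in Phase 0 and 1458 to 1788 in Control, and 2 senescence markers to 1077 to 1718 in Phase 1, 947 to 1948 in Phase 0 and 465 to 1404 in Control. Of 3 guard cell markers KAT1 was 1.34-fold higher in Phase 1 than in Control (adjusted p = 0.0288, limma), a call lost without Control replicate 1 (0.0614), Phase 1 replicate 1 (0.0843) or Phase 1 replicate 3 (0.0858). The others did not pass: FAMA averaged 317 in Phase 1 and 332 in Control, and MYB60 averaged 389 and 380. Of the senescence markers NYE1, which acts in chlorophyll breakdown, was 2.29-fold higher in Phase 1 than in Control (adjusted p = 0.00425, limma). The other, SAG13, did not pass in any comparison, and its mean was lowest in Phase 1. It averaged 329 ± 183 in Phase 1, 709 ± 448 in Phase 0 and 398 ± 318 in Control (SD, n = 3 each). SUC2 was also 1.44-fold lower in Phase 1 than in Phase 0 (adjusted p = 0.0171), a call lost without Phase 0 replicate 2 or 3 or Phase 1 replicate 1 (0.0529 to 0.0686). NYE1 was 1.75-fold higher in Phase 1 than in Phase 0 (adjusted p = 0.0346), a call lost without Phase 0 replicate 1 or 3 or any 1 of the Phase 1 libraries (0.0528 to 0.112). Markers of root and seed had no row in the table used here and were not analysed. Totals ran from 22786946 to 27820610 normalised counts per library, and organelle transcripts made up 0.605% in Phase 0 replicate 2 against 0.0414% to 0.0575% in the others.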

How the data were processed

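RNA of 9 leaf libraries (3 per group) was sequenced as stranded poly(A)-selected 75-base single-end reads, per the labels' protocols. The authors deposited 1 score per gene and library. The file holds whole numbers that are normalised counts, not raw counts, so read depth per library is not given. Tools listed in the submitters' processing notes, without the role of each, were STAR 2.4.0a, featureCounts 1.4.5-p1 of Subread, DESeq2 1.62 and FastQC, with the TAIR10 build. How strand was counted is not given in the sources used here.

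Values were taken as log2(value + 1). Genes with a mean of at least 10 were fitted with limma 3.58.1 (R 4.3.3, trend option), with all 9 libraries in 1 model of 3 groups, and p-values were Benjamini-Hochberg adjusted over 18650 genes (threshold 0.05). With 3 libraries per group an exact permutation test cannot reach that threshold and was not used. The calculation was tested on simulated data for Phase 0 against Control. It recovered 6.0% of changes of 0.5 on the log2 scale, 52.0% of changes of 1 and 86.0% of changes of 2. A gene that did not pass may therefore still differ. Gene names and sequences came from RefSeq, TAIR10.1, by locus: 21054 of 21176 loci had an entry. Coding-sequence identity replaced a planned protein comparison. Python 3.11.15 and Biopython 1.88 were used.

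The members and 16 other lists (97 loci, 83 in the table) were chosen with earlier results of these data known. All members are named; from each trehalose, SnRK1 or sugar list up to 3 genes with the largest changes past the threshold are named, with CCA1, LHY and TOC1 for the clock. TPPA and TPPG, TPPH in Phase 1, ASN1, LHCB1.3, SUC2, AHA3, KAT1, NYE1, KIN10, KIN11 and APL4 were named after their values were seen where that rule does not cover them. So were FAMA, MYB60 and SAG13. Alternatives were other pseudocounts, filters, scalings and models, a threshold of 0.01, and libraries left out.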

Additional observations from a re-analysis of the deposited data

Results flagged for a closer look

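TPS1 and TPS11 were singled out because their fitted changes against Control had opposite signs in the salt groups and the groups themselves differed in the test. TPS1 differed from Control by 1.1 in Phase 1 and by -0.01 in Phase 0 (log2), and Phase 1 differed from Phase 0 by 1.11 (adjusted p = 0.0062, limma), with all 3 Phase 1 libraries above all 3 Phase 0 libraries. TPS11 differed from Control by -2.0 in Phase 1 and by 0.42 in Phase 0, and Phase 1 differed from Phase 0 by -2.43 (adjusted p = 0.00115, limma), with all 3 Phase 1 libraries below all 3 Phase 0 libraries. Neither gene passed the test in Phase 0 against Control (adjusted p of 0.982 for TPS1 and 0.589 for TPS11), and with equal totals the Phase 0 change of TPS1 was 0.08.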

How the results depend on the processing

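The count of all genes past the threshold in Phase 0 against Control was 547 as reported, 2645 with weighted libraries, 124 at a threshold of 0.01, 212 with Phase 0 replicate 2 and Control replicate 1 both left out, and 118 to 882 with single libraries left out, the lowest without Phase 0 replicate 3 and the highest without Control replicate 2. At 0.01 it was 3918 in Phase 1 against Control (6724 as reported) and 2880 in Phase 1 against Phase 0 (5249), where single libraries left out gave 3379 (without Phase 0 replicate 2) to 6710. Of the 9 genes, the count in Phase 0 against Control was 0 without the variance trend, with the replicate block, at 0.01 and without both named libraries, 3 with weighted libraries, and 0 to 1 with single libraries left out. With equal totals the median log2 change of all genes was 0.10 in Phase 0 against Control (0.01 as reported), 0.14 in Phase 1 against Control (0.00) and 0.03 in Phase 1 against Phase 0 (-0.01). The split over all genes was then 363 higher and 190 lower (238 and 309 as reported) in the first, 4208 and 2579 (3250 and 3474) in the second and 2640 and 2325 in the third.

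Changes that turned sign were small and passed in no setting. In Phase 0 against Control they were TPS1 with equal totals (0.08) and with single libraries left out (-0.35 to 0.21), among them Control replicate 2 (0.21), Control replicate 3 (0.09) or Phase 0 replicate 2 (0.07), TPS6 with weighted libraries (-0.05) and with single libraries left out (-0.10 to 0.15), among them Control replicate 1 (-0.10), Phase 0 replicate 1 (-0.06) or both named libraries (-0.08), and TPS10 with equal totals (0.05) and with single libraries left out (-0.18 to 0.12), among them Control replicate 2 (0.01) or Phase 0 replicate 3 (0.12). In Phase 1 against Phase 0 they were TPS5 without Phase 0 replicate 1 (-0.05) or Phase 1 replicate 1 (-0.05), and TPS7, at -0.11 to 0.04 with single libraries left out, without Phase 0 replicate 2 (0.04) or both named libraries (0.04). The cause was not tested.

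Libraries with the same replicate number did not deviate together (correlations of -0.252 to 0.252), so the numbers were not taken as pairs. With the replicate block 372, 6261 and 4835 genes passed in Phase 0 against Control, Phase 1 against Control and Phase 1 against Phase 0, and 0, 8 and 6 of the 9 genes, with an adjusted p of 0.0554 for TPS5 in the first. Ranking levels by coding length kept 5 of 9 ranks in Control and 4 of 9 in Phase 0.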
